A study of Mus musculus with 48 samples.

Results

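Interferon-stimulated genes are the genes that a cell switches on when interferon binds its receptor, and 37 of them were followed here through the development of early mouse B cells with and without the zinc finger transcription factor Ikaros, the product of Ikzf1. The 37 genes were taken by name from the 21025 gene rows of the tables, and each had a single row. In the tables' spelling they comprise 5 sensors of foreign nucleic acid (IFIH1, DDX58, DHX58, ZBP1 and EIF2AK2), 4 transcription factors (STAT2, IRF9, IRF7 and IRF1) and 14 antiviral effectors (IFIT1, IFIT2, IFIT3, MX1, MX2, OAS1A, OAS2, OAS3, OASL1, OASL2, ISG20, RSAD2, BST2 and IFITM3). The others are 2 guanylate-binding proteins (GBP2 and GBP3), 3 genes of the ISG15 modifier system (ISG15, USP18 and TRIM25), 3 genes of antigen processing (TAP1, PSMB8 and PSMB9), the chemokine CXCL10, and PARP9, PARP14, XAF1, IFI35 and IFI44. Mouse gene symbols are used from here on. RNA levels came from 30 RNA sequencing libraries of C57BL/6 cells in 11 groups, and the question put to them was what the loss of Ikaros does at each stage. Ikaros was deleted in total pro-B cells (Ikzf1(fl/-) Cd79a(Cre/+), 2 libraries), against Ikzf1(fl/+) Cd79a(Cre/+) pro-B cells (2 libraries), and the same genotypes were compared in the c-Kit-high pro-B fraction (2 and 2 libraries). Another pair carried Rag2(-/-) in addition, in both the deleted and the control pro-B cells (2 and 2 libraries). Pre-pro-B cells of the genotype Ebf1(-/-) carried either of the Ikaros knock-down constructs Ik4056 and Ik2709 (4 libraries each), against the control construct Ren713 and the empty vector (4 libraries each). Wild-type total pre-B cells made up the last group (2 libraries). The Cre recombinase is expressed from the Cd79a locus, which is active in the B lineage, and it is present in the controls as well, which also carry 1 floxed Ikzf1 allele. That allele can be deleted in the controls too. Where Cre has acted, the deletions thus compare cells without an intact Ikzf1 allele with cells that keep 1. Age, sex and pooling of the animals, and whether the libraries of a group came from separate animals or cultures, are not given in the sources used here, so p-values measure the spread between these libraries, which may be technical.

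As background, type I interferons bind the receptor pair Ifnar1 and Ifnar2, whose kinases Jak1 and Tyk2 phosphorylate Stat2. Stat2 and Irf9 are parts of the factor ISGF3, which binds the interferon-stimulated response element (ISRE) in the promoters of its targets. Interferon gamma acts on another element, the gamma-activated site (GAS), and Irf1 is among its classical targets. Many of these genes also have a basal level that is set without added interferon and that differs between cell types.

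The tables give RPKM, reads per kilobase of gene model scaled to the library's total reads, and hold no read totals. The steps between the lowest values imply a depth, in units of 1e6 reads, from about 2.34 in a c-Kit-high control library to about 37.6 in a Ren713 library, so 1 read weighs most in that control library. Ikzf1 itself was at 45.3 to 48.9 RPKM in deleted pro-B cells against 56.4 to 59.2 in their controls, at 64.5 to 86.0 against 101 to 124 in the c-Kit-high fraction, at 36.7 to 39.9 against 56.2 to 62.3 in Rag2-null cells, and at 23.7 to 60.6 under knock-down against 106 to 145 RPKM in the pre-pro-B controls. Rag2 was at 1.5 to 1.85 RPKM in the deleted and 1.5 to 3.55 in the control libraries labelled Rag2(-/-), against 0.0238 to 0.0261 RPKM in deleted and 4.4 to 6.14 in control total pro-B cells, so that Rag2 RNA does not separate the libraries by the Rag2 label, and Rag2-null names the labelled genotype throughout. A gene total includes reads from exons that a deletion may leave in place, for Ikzf1, Ebf1 and Rag2 alike. All 7 B-lineage markers were at 1 RPKM or more in every pro-B and pre-B library, with sums of 2806 to 6151 RPKM. In the Ebf1(-/-) pre-pro-B libraries the same markers summed to 31.9 to 88.2 RPKM under knock-down and 25.8 to 37.8 in the controls, and Ebf1 itself, the gene labelled as deleted, made up 14.8 to 30.1 and 19.7 to 32.1 RPKM of those sums. There Cd79a and Pax5 were each at most 0.296 RPKM. Of the myeloid markers (Lyz2, S100a8, S100a9, Ngp, Csf1r, Itgam, Cd14, Mpo, Elane), the sum was 4.84 to 14.5 RPKM in total pro-B, 10.4 to 42.2 in Rag2-null, 137 to 587 in c-Kit-high, 24.9 to 491 in pre-pro-B and 6229 to 6428 RPKM in pre-B libraries. Replication-dependent histone genes took 0.627% of all RPKM in 1 deleted and 0.557% in 1 control library of the c-Kit-high fraction, against at most 0.136% in the other libraries.

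The 37 genes covered a wide range of levels. Per length, in total pro-B cells, the immunoproteasome subunits Psmb8 (232 and 234 RPKM in deleted pro-B cells, 254 and 274 RPKM in their controls) and Psmb9, the membrane protein Ifitm3, the virus-tethering protein Bst2 and the peptide transporter Tap1 were the highest. The classical antiviral genes Mx1, Rsad2, Ifit1 and Ifit3 were at most 0.393 RPKM in the 4 total pro-B libraries, and the chemokine Cxcl10 was below 1 RPKM in each of the 30 libraries and was therefore not tested. A level of 1 RPKM or more was reached by 26 to 27 of the 37 genes in deleted and 23 to 24 in control pro-B libraries. It was reached by 33 to 36 and 35 to 36 genes in the c-Kit-high fraction, by 29 to 30 and 27 genes in Rag2-null cells, and by 21 to 24 genes under knock-down and 17 to 19 genes in the pre-pro-B controls. The pre-B libraries had 34 to 35. More of the genes were thus above 1 RPKM in the c-Kit-high and pre-B libraries than in any other. The 17 type I, II and III interferon genes on the list summed to at most 0.714 RPKM in any library, and none reached 1 RPKM.

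**Figure D1:**
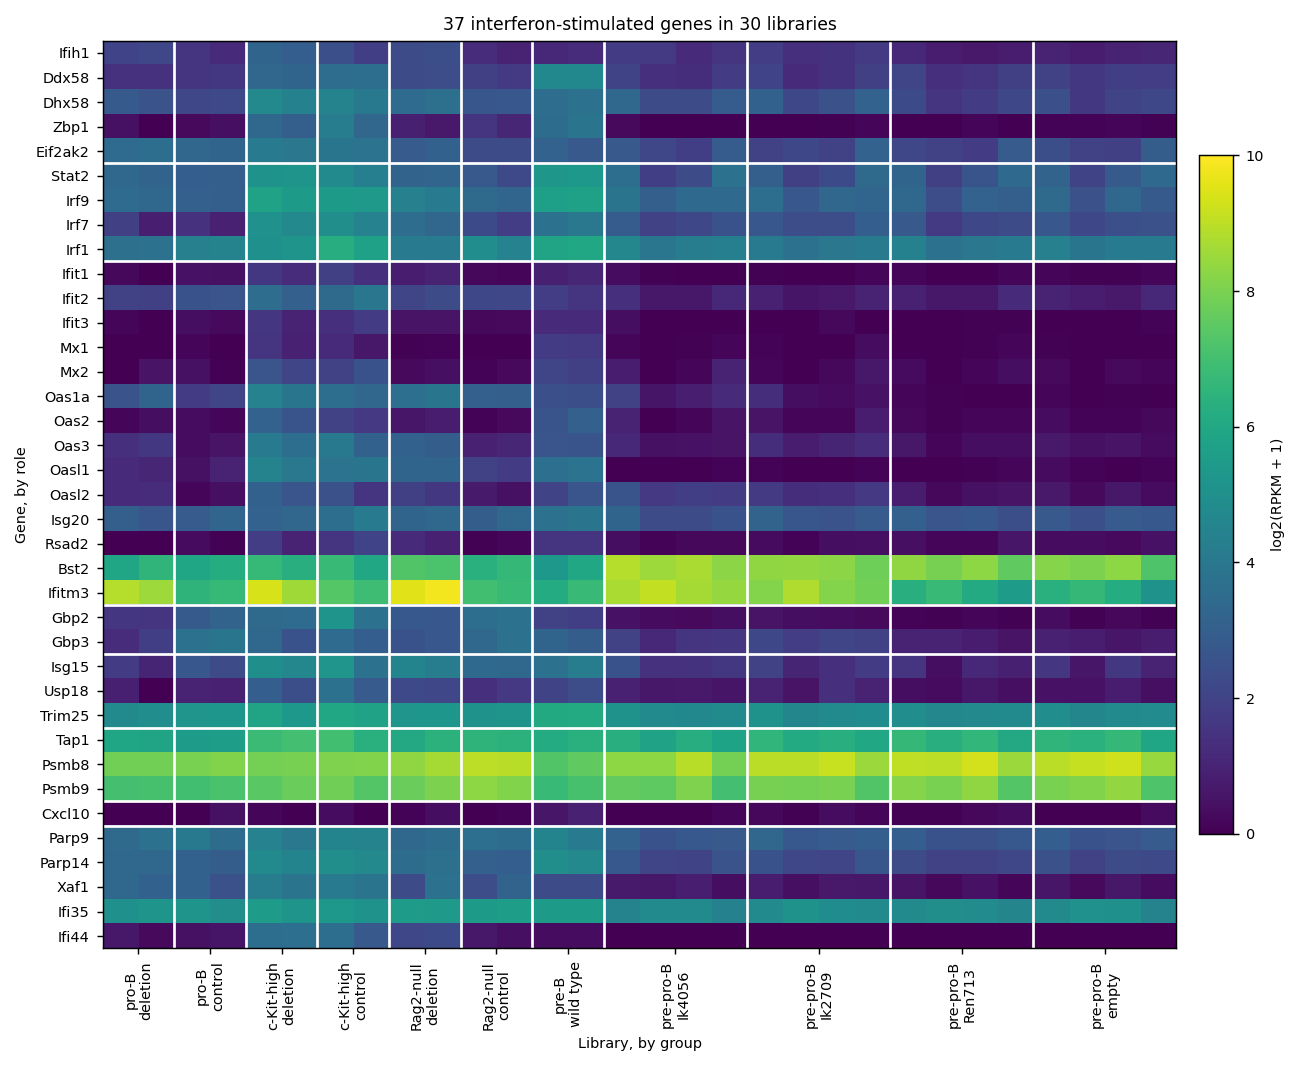
Level of each of the 37 genes (rows, by role) in each of the 30 libraries (columns, by group), as log2(RPKM + 1) on a colour scale from 0 to 10. The antiviral effectors are brighter in the 4 c-Kit-high and 2 pre-B libraries than in the total pro-B libraries, Ifitm3 is brighter in every deleted or knocked-down group than in its control, and Psmb8 is bright throughout.

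Upon deletion, interferon-stimulated genes were called in both directions, and under knock-down only upwards in the fit without a replicate block. In total pro-B cells the shares of the genes tested (16.7% higher, 11.1% lower) were near those of all genes. In the c-Kit-high fraction (8.33% and 2.78%) they were below them. After deletion in total pro-B cells 6 of the 36 genes tested rose and 4 fell (limma on log2(RPKM + 1), adjusted p under 0.05 over 11937 genes), where 13.5% of all genes rose and 9.89% fell. The median log2 difference of the genes was 0.02 and that of all genes 0.03. In the c-Kit-high fraction 3 rose and 1 fell, against 11.6% and 5.6% of all genes, with medians of 0.14 and 0.03. In Rag2-null cells 16 rose and 3 fell, against 15.5% and 6.84% of all genes, and the median was 0.56 against 0.06 for all genes. Under knock-down in pre-pro-B cells 8 of 25 genes tested rose and 0 fell, against 13.4% and 6.04% of 10744 genes, with medians of 0.18 and 0.01. A gene was tested there if it reached 1 RPKM in at least 2 of the 16 libraries. Among the 8, Oas1a, Oas3, Oasl2, Gbp3 and Usp18 were below 1 RPKM in every control library. They passed the filter only through knocked-down libraries, so the count of 8 against 0 is partly set by the filter. With the paired runs of pre-pro-B libraries as a replicate block, 13 rose and 3 fell, against 28.8% and 23.1% of all genes. Myeloid markers summed to 4.84 to 7.21 RPKM in deleted pro-B cells and 13.6 to 14.5 in their controls, and to 164 to 289 and 137 to 587 RPKM in the c-Kit-high fraction, where the NK and T cell markers summed to 1.59 to 1.76 and 7.19 to 11 RPKM. In Rag2-null cells the plasmacytoid dendritic cell markers summed to 199 to 208 RPKM with deletion and 162 to 203 without, 3 of 7 tested rose and 0 fell, and their median log2 difference was 0.55. For all of these markers, their part in the results was not tested. In these bulk libraries, fewer cells of a type and less RNA per cell cannot be told apart.

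Only 2 genes, Ifih1 and Ifitm3, were called in all 4 comparisons, and 6 more (Dhx58, Irf1, Oas1a, Oas3, Oasl2 and Gbp3) in 3 of them. A further 15 were called in 1 comparison and 14 in none. The shares of all genes called in as many comparisons were not computed, so these counts cannot be read as particular to interferon-stimulated genes. The deletion comparisons rest on 2 libraries a side. Without any 1 library, Ifitm3 and Gbp3 kept their calls in total pro-B cells, Ifitm3 and Irf1 in the c-Kit-high fraction, and Ifih1, Dhx58, Irf9, Oas3, Oasl1, Ifitm3 and Ifi44 in Rag2-null cells. The counts fell to 5, 2, 4 and 4 called genes in total pro-B cells without deletion replicate 1, deletion replicate 2, control replicate 1 and control replicate 2, and to 9, 11 and 10 in Rag2-null cells without deletion replicate 1, deletion replicate 2 and control replicate 2. In the c-Kit-high fraction the count was 10 without control replicate 1. No called gene changed sign in any of these fits or under quantile normalization or median-ratio scaling, but in Rag2-null cells quantile normalization left 8 higher and 2 lower. There the scaling moved the median of all genes by -0.13 (quantile) and -0.10 (median-ratio), and the median of the 36 genes was then 0.33 and 0.48. Of all genes called there, 69.4% were higher as deposited, 50.6% under median-ratio scaling and 57.9% under quantile normalization. The same shares were 67.4%, 57.3% and 51.7% in the c-Kit-high fraction and 68.9%, 57.0% and 52.5% under knock-down.

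**Figure D2:**
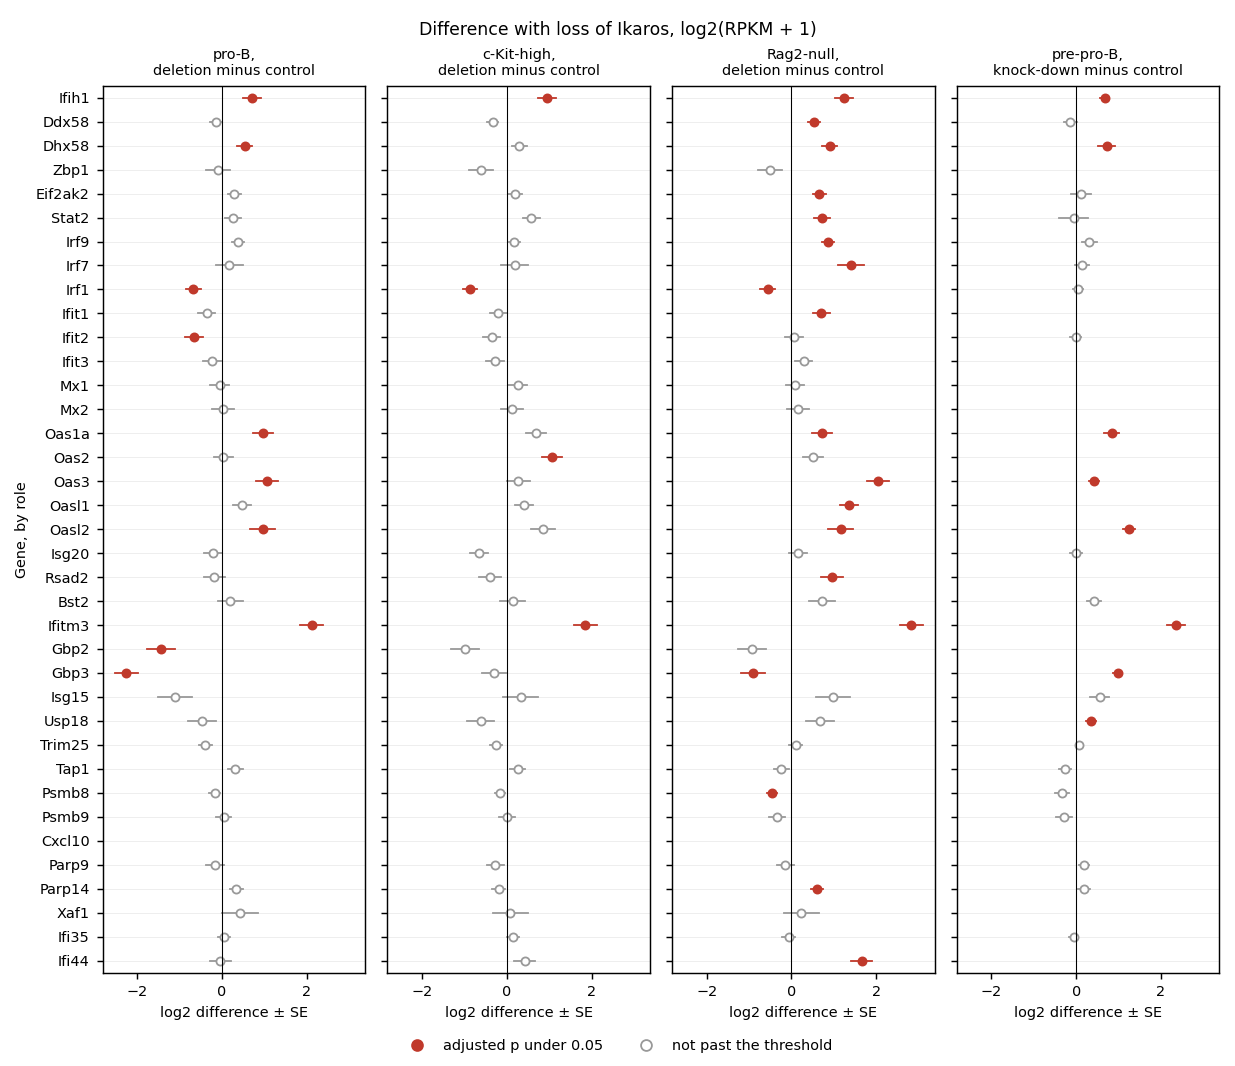
Log2 difference of RPKM + 1 (x axis, point, with its standard error as a line) for each gene tested (y axis, by role) in the 3 deletions and the knock-down, deleted or knocked down minus control. Filled points passed an adjusted p under 0.05. Ifitm3 is the rightmost point in all 4 panels, Gbp3 is left of 0 in total pro-B and Rag2-null cells and right of 0 under knock-down, and most filled points of the Rag2-null panel lie right of 0; a gene without a point was not tested.

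Ifitm3, a membrane protein that blocks the fusion of enveloped viruses with endosomes, showed the largest rise on the log2(RPKM + 1) scale of the genes tested in each comparison. That scale holds back genes of low level: under knock-down Oas1a had a log2 difference of 2.69 with a pseudocount of 0.1, and Ifitm3 one of 2.37. Ifitm3 was at 470 and 372 RPKM in deleted pro-B cells, against 90.2 and 102 in their controls (log2 difference 2.11 ± 0.27 SE, adjusted p = 0.000221). The c-Kit-high libraries had 667 and 385 RPKM with deletion and 164 and 119 without (1.85 ± 0.27, adjusted p = 0.000732), and the Rag2-null libraries 747 and 894 with deletion and 125 and 105 without (2.83 ± 0.27, adjusted p = 3.27e-05). Under knock-down the lowest, median and highest library had 235, 370 and 541 RPKM, against 34.6, 75.0 and 109 in the pre-pro-B controls (2.35 ± 0.22, adjusted p = 1.25e-06). Deleted or knocked-down libraries lay above every control library of their population, with no overlap. Over all populations the deleted and knocked-down libraries ranged from 235 to 894 RPKM and the control and pre-B libraries from 34.6 to 164 RPKM. Of 2 relatives on a separate list, named after their values were seen, Ifitm2 did not pass the test in any deletion (log2 -0.12, 0.51 and 0.34) and rose under knock-down (0.66), and Ifitm1, which varied widely between replicates (165 and 375 RPKM in Rag2-null deleted cells, 65.2 and 17.8 in their controls), passed in none (1.5, 2.56, 2.83 and 0.48).

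Ifih1 encodes Mda5, a cytosolic sensor of long double-stranded RNA. It was at 3.05 and 3.41 RPKM in deleted pro-B cells against 1.94 and 1.31 in their controls (log2 difference 0.70 ± 0.21, adjusted p = 0.0314), and at 8.29 and 6.97 against 4.36 and 2.66 RPKM in the c-Kit-high fraction (0.96 ± 0.21, adjusted p = 0.00742). Rag2-null deleted cells had 4.00 and 4.29 RPKM and their controls 1.39 and 0.969 (1.25 ± 0.21, adjusted p = 0.00118). Knocked-down cells had 1.31, 2.07 and 2.52 RPKM as lowest, median and highest, against 0.626, 0.851 and 1.14 in the controls (0.67 ± 0.10, adjusted p = 0.00019). Again no deleted or knocked-down library overlapped its controls, at levels far below those of Ifitm3. The total pro-B call was lost without deletion replicate 1, deletion replicate 2 or control replicate 2 (0.76, 0.64 and 0.53) and the c-Kit-high call without deletion replicate 1 or control replicate 2 (0.85 and 0.68), all with the same sign.

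**Figure D3:**
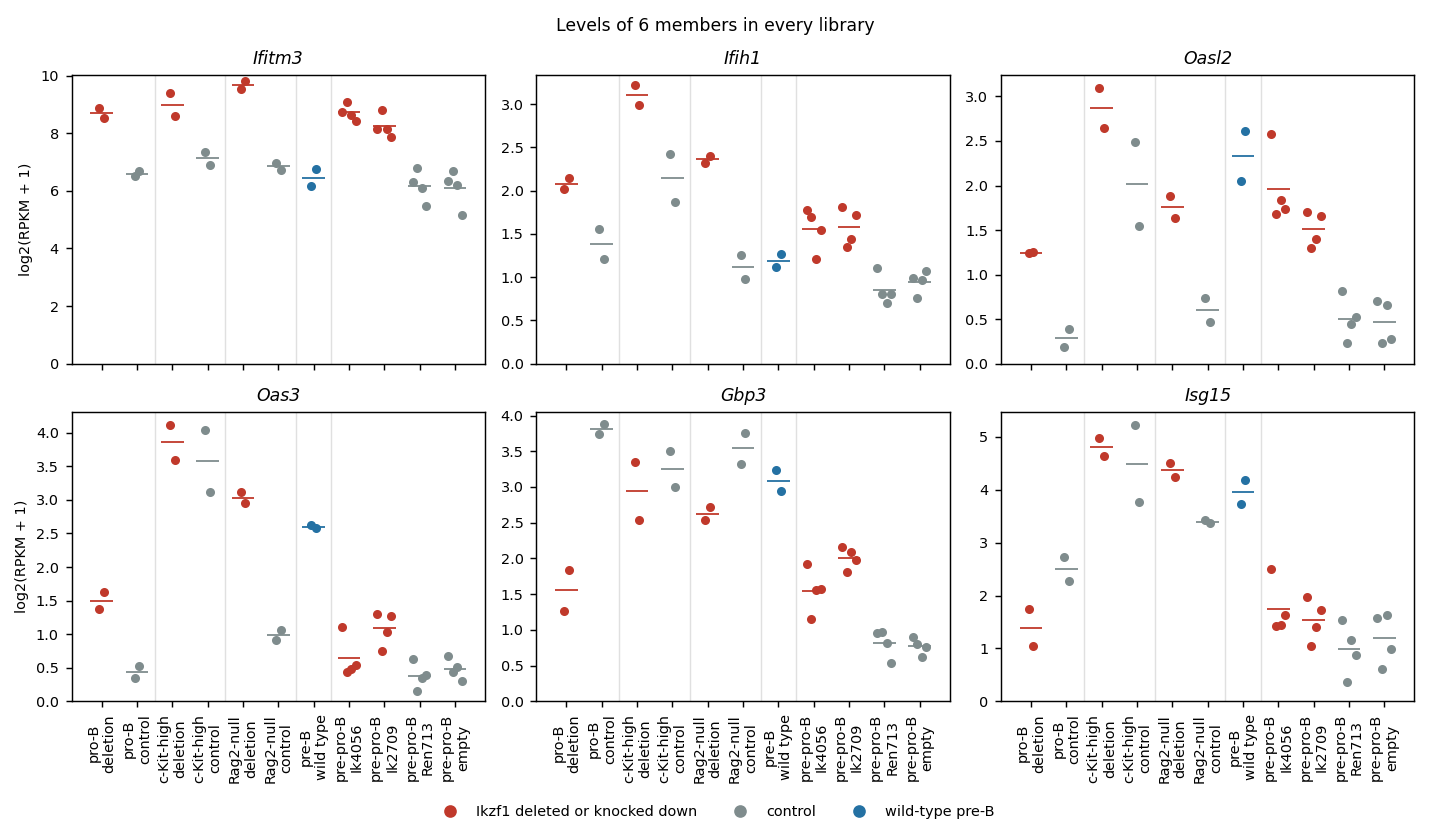
Level of Ifitm3, Ifih1, Oasl2, Oas3, Gbp3 and Isg15 as log2(RPKM + 1) in every library (points) with the group mean (line), in 11 groups along the x axis. Red marks Ikzf1 deletion or knock-down, grey the controls and blue wild-type pre-B cells. Red points of Ifitm3, Ifih1 and Oasl2 lie above the grey points of the same population, and those of Gbp3 lie below the grey in total pro-B and Rag2-null cells and above it in pre-pro-B cells.

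The promoters of 4 genes are shown, taken from the genes called in most comparisons among those that hold the ISRE core given below. Each of the 4 therefore holds a match by choice. Ifitm3 and Ifih1 rose in all 4 comparisons, Oas3 rose in 3, and Gbp3 fell in 2 and rose in 1. Oasl2 and Irf1, also called in 3, have 0 matches in their windows. Oas1a, called in 3, has 2 and is not shown, and Dhx58, called in 3, has no window. Each run is the RefSeq window from 250 bases before to 50 bases after the transcription start on GRCm38.p6, read 5′ to 3′ on the gene's strand, with matches to the ISRE core (GAAA, any 2 bases, GAAA), on either strand, in capitals. The windows are chr7:141010695-141010994 on the minus strand for Ifitm3, chr2:62646206-62646505 on the minus strand for Ifih1, chr5:120777610-120777909 on the minus strand for Oas3 and chr3:142559794-142560093 on the plus strand for Gbp3, which has 2 windows in the table.
Ifitm3: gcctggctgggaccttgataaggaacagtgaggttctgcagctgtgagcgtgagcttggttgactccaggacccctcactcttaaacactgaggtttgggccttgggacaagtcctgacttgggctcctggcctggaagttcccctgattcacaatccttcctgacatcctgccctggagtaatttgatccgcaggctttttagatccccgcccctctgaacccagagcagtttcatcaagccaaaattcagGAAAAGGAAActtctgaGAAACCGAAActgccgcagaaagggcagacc
Ifih1: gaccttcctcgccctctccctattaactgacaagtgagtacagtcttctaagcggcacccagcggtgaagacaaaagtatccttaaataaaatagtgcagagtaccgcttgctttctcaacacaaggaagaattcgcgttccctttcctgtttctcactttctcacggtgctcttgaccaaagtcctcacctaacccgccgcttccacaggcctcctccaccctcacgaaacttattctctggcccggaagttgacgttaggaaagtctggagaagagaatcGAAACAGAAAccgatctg
Oas3: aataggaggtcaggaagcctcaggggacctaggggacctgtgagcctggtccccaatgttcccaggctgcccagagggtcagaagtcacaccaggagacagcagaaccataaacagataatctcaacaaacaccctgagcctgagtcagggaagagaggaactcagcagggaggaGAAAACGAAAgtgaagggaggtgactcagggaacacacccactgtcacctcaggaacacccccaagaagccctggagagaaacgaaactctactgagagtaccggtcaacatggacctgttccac
Gbp3: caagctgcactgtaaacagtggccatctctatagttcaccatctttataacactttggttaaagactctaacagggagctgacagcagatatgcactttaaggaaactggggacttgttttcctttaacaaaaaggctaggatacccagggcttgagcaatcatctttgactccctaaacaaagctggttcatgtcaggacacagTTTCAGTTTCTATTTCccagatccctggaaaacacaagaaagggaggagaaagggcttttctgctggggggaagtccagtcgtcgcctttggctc
Ifitm3 holds 2 matches, which start at base 2 and base 19 from the start site. The match of Ifih1 starts at base 32, that of Oas3 at base -75, and Gbp3 holds 2 overlapping matches to the other strand (TTTC, any 2 bases, TTTC) at bases -45 and -39.

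Of the 37 genes, 29 had a promoter in the table, and 8 (Dhx58, Zbp1, Mx1, Mx2, Oas2, Usp18, Parp9 and Parp14) are named only. An ISRE core was found in 15 of the 29, that is 51.7%, against 3.99% of the 27025 genes in the table, or in 42.9% of 35 windows against 3.44% of 32851 windows. The GAS core TTCNNNGAA was found in 9 of the 29 genes, that is 31.0% against 9.55% of all genes (25.7% of their windows against 8.3% of all), among them Ifitm3 and Irf1. The core TGGGAA that Ikaros recognises, which reads TTCCCA on the other strand, was found in 14 of the 29. That is 48.3% against 28.3% of all genes (40.0% of windows against 25.6% of all). It was present in Gbp3 and Oas3 and not in these windows of Ifitm3 and Ifih1. The windows of Tap1 and Psmb9 overlap on opposite strands and hold 1 Ikaros core each, which may be the same site counted for both. The ISRE and GAS cores can share bases. A match describes the letters of the window and is not a bound site.

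The 2′-5′-oligoadenylate synthetases make the messenger that activates RNase L. Of these and the OAS-like genes, Oas1a, Oas2, Oas3, Oasl1 and Oasl2 were each called in at least 1 comparison. Oas3 was at 1.59 and 2.08 RPKM in deleted pro-B cells against 0.274 and 0.434 in their controls (log2 difference 1.06 ± 0.27, adjusted p = 0.0117), and at 7.65 and 6.71 against 0.885 and 1.09 RPKM in Rag2-null cells (2.04 ± 0.27, adjusted p = 0.000153). In the c-Kit-high fraction it was at 16.3 and 11.1 RPKM with deletion and 15.5 and 7.67 without, groups that overlap (0.27 ± 0.27, adjusted p = 0.54). Knocked-down libraries had 0.350, 0.867 and 1.47 RPKM as lowest, median and highest, against 0.114, 0.331 and 0.604 in the controls (0.43 ± 0.12, adjusted p = 0.016). Oas3 was thus higher in 3 of the 4 populations, and under knock-down the ranges overlap, with both constructs above both controls in 2 of the 4 sets of libraries numbered together.

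Oasl2, an OAS-like protein with ubiquitin-like domains, was at 1.36 and 1.38 RPKM in deleted pro-B cells, against 0.138 and 0.311 in their controls (log2 difference 0.96 ± 0.29, adjusted p = 0.0326). It was at 2.69 and 2.12 against 0.672 and 0.379 RPKM in Rag2-null cells (1.16 ± 0.29, adjusted p = 0.0138). Under knock-down it had 1.46, 2.23 and 4.98 RPKM, against 0.172, 0.400 and 0.753 in the controls (1.25 ± 0.14, adjusted p = 7.28e-06), without overlap. In the c-Kit-high fraction, 7.58 and 5.27 RPKM with deletion and 4.62 and 1.93 without gave 0.85 ± 0.29 (adjusted p = 0.066), so the direction was shared and the threshold was missed.

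Oas1a, which belongs to a cluster of near-identical genes whose reads may be split among the copies, was at 4.82 and 8.25 RPKM in deleted and 2.33 and 3.20 RPKM in control pro-B cells (log2 difference 0.97 ± 0.24, adjusted p = 0.0108). Rag2-null deleted cells had 11.7 and 13.7 RPKM and their controls 7.49 and 7.14 (0.72 ± 0.24, adjusted p = 0.0497), a value at the threshold. Knocked-down libraries had 0.234, 0.636 and 2.88 RPKM, against 0, 0.0219 and 0.109 in the controls (0.84 ± 0.18, adjusted p = 0.00296), and every control library was lower than every knocked-down one. The c-Kit-high libraries had 20.8 and 13.6 RPKM with deletion and 11.4 and 8.91 without (0.69 ± 0.24, adjusted p = 0.069). Its neighbour Oas1g, from a separate list of interferon-induced genes, rose in all 3 deletions (0.98, 1.66 and 1.70). Oas2 rose in the c-Kit-high fraction (1.07 ± 0.23, adjusted p = 0.00619) and Oasl1 in Rag2-null cells (1.36 ± 0.20, adjusted p = 0.000464). Without a single library, the pro-B calls of Oas3 and Oas1a were lost in 2 of 4 fits each (without deletion replicate 2 and without control replicate 1, 0.94 and 0.98 for Oas3, 0.64 and 0.80 for Oas1a), those of Oasl2 in pro-B cells in all 4 (0.86 to 1.06), of Oas1a in Rag2-null cells in all 4 (0.61 to 0.82) and of Oasl2 in Rag2-null cells without deletion replicate 1 (1.04) or control replicate 2 (1.02).

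Among the sensors, Dhx58 (Lgp2), a relative of Mda5 without a signalling domain, was at 6.16 and 4.94 RPKM in deleted pro-B cells, against 3.32 and 3.67 in their controls (log2 difference 0.54 ± 0.18, adjusted p = 0.0446). It was at 10.3 and 11.8 against 5.31 and 5.51 RPKM in Rag2-null cells (0.91 ± 0.18, adjusted p = 0.00293), and at 3.48, 5.5 and 9.30 RPKM under knock-down against 1.87, 3.31 and 4.37 in the controls (0.72 ± 0.20, adjusted p = 0.0171). In the c-Kit-high fraction it had 25.3 and 19.8 RPKM with deletion and 21.1 and 15.5 without, which overlap (0.29 ± 0.18, adjusted p = 0.31). The knock-down ranges overlap as well, but within each of the 4 sets of libraries numbered together both constructs lay above both controls. The pro-B call was lost with any 1 of the 4 libraries left out (0.40 to 0.67).

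Ddx58 (Rig-I), the sensor of short triphosphorylated RNA, did not follow Ifih1 and Dhx58. It was at 1.68 and 1.68 RPKM in deleted and 1.88 and 2.09 in control pro-B cells, at 8.80 and 8.42 against 10.9 and 11.3 in the c-Kit-high fraction, and at 1.35, 2.06 and 3.11 under knock-down against 1.59, 2.55 and 3.24 RPKM in the controls, none past the threshold (log2 -0.16, -0.34 and -0.14). It was called in Rag2-null cells, at 3.93 and 4.10 RPKM against 2.67 and 2.27 (0.53 ± 0.14, adjusted p = 0.0157), a call lost without deletion replicate 1 (0.56), deletion replicate 2 (0.51) or control replicate 2 (0.45). The RNA-activated kinase Eif2ak2 (PKR) also rose in Rag2-null cells (0.65 ± 0.16, adjusted p = 0.01), and the nucleic acid sensor Zbp1 passed in no deletion (-0.10, -0.61 and -0.50).

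The guanylate-binding proteins, GTPases that attack the vacuoles of intracellular microbes and respond strongly to interferon gamma, fell or did not pass in the deletions. Gbp3 was at 1.4 and 2.58 RPKM in deleted pro-B cells against 12.4 and 13.7 in their controls (log2 difference -2.26 ± 0.28, adjusted p = 9.35e-05), the largest fall of the 36 genes tested there. Rag2-null deleted cells had 4.78 and 5.57 RPKM and their controls 8.99 and 12.5 (-0.91 ± 0.28, adjusted p = 0.0353). In the c-Kit-high fraction 9.18 and 4.78 RPKM with deletion overlapped 10.3 and 7.02 without (-0.31 ± 0.28, adjusted p = 0.51). Under knock-down Gbp3 rose, with 1.21, 2.65 and 3.45 RPKM as lowest, median and highest, against 0.450, 0.749 and 0.957 in the controls (0.98 ± 0.11, adjusted p = 6.07e-06). The pre-pro-B controls thus had far less Gbp3 than the pro-B controls, and the knocked-down libraries lay between the pre-pro-B and the pro-B controls. The Rag2-null call was lost without deletion replicate 1 (-0.82), deletion replicate 2 (-1.01) or control replicate 2 (-0.70).

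Gbp2 was at 2.03 and 1.8 RPKM in deleted pro-B cells against 6.07 and 8.01 in their controls (log2 difference -1.45 ± 0.33, adjusted p = 0.00751), a call lost without deletion replicate 2 (-1.40) or control replicate 2 (-1.28). It was at 5.79 and 5.55 against 11.2 and 12.3 RPKM in Rag2-null cells (-0.93 ± 0.33, adjusted p = 0.065) and at 10.0 and 10.3 against 35.4 and 12.5 in the c-Kit-high fraction (-0.98 ± 0.33, adjusted p = 0.063). In pre-pro-B cells it lay at 0.192 to 0.452 RPKM under knock-down and 0.0301 to 0.250 in the controls, below the level tested. Of 3 relatives on the separate list, Gbp4 fell in total pro-B (-1.15) and c-Kit-high cells (-2.02), Gbp7 fell in total pro-B cells (-1.69), and Gbp6 passed in no deletion (-0.13, -0.66 and 0.11).

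The transcription factors split. Irf1, an activator that interferon gamma induces, fell in the 3 deletions: it was at 12 and 12.6 RPKM against 19.6 and 21.1 in total pro-B cells (log2 difference -0.68 ± 0.17, adjusted p = 0.0135), at 31.3 and 35.1 against 73.5 and 51.4 in the c-Kit-high fraction (-0.87 ± 0.17, adjusted p = 0.00399), and at 15.9 and 16.3 against 28.7 and 20.5 RPKM in Rag2-null cells (-0.56 ± 0.17, adjusted p = 0.0366). Deleted libraries lay below their controls in each population. Under knock-down Irf1 had 12.4, 16.5 and 23.9 RPKM against 12.7, 16.2 and 20.0 in the controls, which overlap (0.05 ± 0.12, adjusted p = 0.85). The pro-B call was lost with any 1 of the 4 libraries left out (-0.63 to -0.73) and the Rag2-null call without deletion replicate 1 (-0.54), deletion replicate 2 (-0.58) or control replicate 1 (-0.33).

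The ISGF3 partners Stat2 and Irf9 and the amplifier of type I interferon Irf7 rose in Rag2-null deleted cells, by log2 0.72 ± 0.19 (adjusted p = 0.017), 0.86 ± 0.14 (adjusted p = 0.000677) and 1.41 ± 0.32 (adjusted p = 0.00767). Irf7 was at 11 and 8.96 RPKM in Rag2-null deleted cells, against 3.75 and 2.57 RPKM in their controls. None of the 3 passed in total pro-B cells (0.26, 0.37 and 0.17), in the c-Kit-high fraction (0.58, 0.18 and 0.19) or under knock-down (-0.06, 0.31 and 0.14), where Irf9 passed with the replicate block (adjusted p = 0.000214).

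Isg15, the ubiquitin-like modifier that is attached to newly made proteins, passed in none of the 4 comparisons without the replicate block. It was at 2.35 and 1.05 RPKM in deleted pro-B cells and 5.59 and 3.87 in their controls (log2 difference -1.11 ± 0.41, adjusted p = 0.077). Rag2-null cells had 21.6 and 18 RPKM with deletion and 9.73 and 9.33 without (0.98 ± 0.41, adjusted p = 0.12). The c-Kit-high libraries had 30.7 and 24.0 against 36.4 and 12.6 RPKM (0.32 ± 0.41, adjusted p = 0.66), and knocked-down libraries 1.06, 1.91 and 4.66 against 0.285, 1.10 and 2.08 RPKM in the controls (0.55 ± 0.22, adjusted p = 0.099, and 0.000256 with the block). Groups did not overlap in total pro-B and Rag2-null cells, with opposite directions, and overlapped in the other populations. Usp18, the protease that removes ISG15 and restrains the receptor, rose under knock-down (0.35 ± 0.11, adjusted p = 0.032), a call lost in 8 of the 14 fits without 1 library in which it was tested. Trim25, the ligase that activates Rig-I, was between 22.8 and 69.1 RPKM in the 30 libraries and passed in none of the 4 comparisons.

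Among the remaining effectors and other genes, Ifi44 was at 3.37 and 3.80 RPKM in Rag2-null deleted cells, against 0.575 and 0.345 in their controls (log2 difference 1.65 ± 0.25, adjusted p = 0.000422). In total pro-B cells it had 0.582 and 0.183 RPKM with deletion and 0.356 and 0.469 without, and in the c-Kit-high fraction 11.3 and 11.5 against 11.3 and 5.93 RPKM, neither past the threshold (-0.05 and 0.42). In the pre-pro-B libraries it was listed at 0 in all but 1 of the knocked-down libraries, which had 0.0201 RPKM, and in all 8 controls. Ifi44 thus passed 1 RPKM in the c-Kit-high and Rag2-null deleted libraries and in no other. Ifit1, which binds viral RNA without the cellular cap, was at 0.729 and 0.940 RPKM in Rag2-null deleted cells, against 0.152 and 0.0987 in their controls (0.70 ± 0.20, adjusted p = 0.0222), a call lost with any 1 of the 4 libraries left out (0.62 to 0.79). It was at 0.153 and 0 against 0.393 and 0.370 RPKM in total pro-B cells (-0.36), at 2.06 and 1.43 against 2.72 and 1.64 in the c-Kit-high fraction (-0.20), and at 0.0105, 0.0323 and 0.255 under knock-down against 0.0204, 0.0636 and 0.127 RPKM in the controls, below the level tested. Rsad2 (viperin) rose in Rag2-null cells (0.95 ± 0.25, adjusted p = 0.018) and Ifit2 fell in total pro-B cells (-0.66 ± 0.21, adjusted p = 0.036). Mx1, of which C57BL/6 mice carry a defective allele, Mx2, Ifit3, Isg20 and Bst2 passed in none of the 3 deletions.

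The antigen processing genes did not share the rise. The immunoproteasome subunit Psmb8 was at 324 and 403 RPKM in Rag2-null deleted cells, against 517 and 483 in their controls (log2 difference -0.47 ± 0.12, adjusted p = 0.017), and Psmb9 (-0.34) and Tap1 (-0.24) did not pass. On a list of 10 further genes of MHC class I presentation, 0 rose and 2 fell in Rag2-null cells (Psmb10 -0.71 and Psme1 -0.34), 2 rose and 1 fell in total pro-B cells, 1 fell in the c-Kit-high fraction and 0 were called under knock-down. Of all genes, 15.5% rose and 6.84% fell in Rag2-null cells, 13.5% and 9.89% in total pro-B cells, and 11.6% and 5.6% in the c-Kit-high fraction. Under knock-down 13.4% of all genes rose and 6.04% fell. MHC class I genes have close relatives between which reads may be split. Of the other genes, the mono-ADP-ribosyltransferase Parp14 rose in Rag2-null cells (0.59 ± 0.14, adjusted p = 0.011), and its partner Parp9, the apoptosis-linked Xaf1 and Ifi35 passed in none of the 4 comparisons, apart from Parp9 under knock-down with the replicate block (0.18, adjusted p = 0.00543).

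The deletion effects in Rag2-null and in total pro-B cells were compared directly by the difference of both effects. The libraries of these populations carry separate runs of library numbers. Their implied depths are 27.2 to 34.3 in Rag2-null and 10.4 to 12.5 in total pro-B cells, in units of 1e6 reads. Rag2 genotype cannot be told apart from either. In the c-Kit-high fraction, deletion replicate 2 and control replicate 1 carry consecutive library numbers and hold the high histone shares (0.627% and 0.557%). Deletion replicate 1 is numbered next to the total pro-B libraries, and control replicate 2 stands apart. Past the threshold, the Rag2-null minus total pro-B difference was above 0 for 5 of 36 genes and below 0 for 0, where 8.54% of all genes were higher and 4.55% lower. The 5 were Isg15 (2.09 ± 0.58, adjusted p = 0.0385), Ifi44 (1.70 ± 0.35, adjusted p = 0.00619), Gbp3 (1.34 ± 0.40, adjusted p = 0.0444), Ifit1 (1.07 ± 0.28, adjusted p = 0.0239) and Ddx58 (0.69 ± 0.20, adjusted p = 0.0366). Of these, Isg15, Ifit1 and Ddx58 were below their controls in total pro-B cells and above them in Rag2-null cells, whereas Gbp3 was below them in both and fell less in Rag2-null cells. Ifi44 alone kept its call with each of the 8 libraries left out, while the count was 2 without pro-B deletion replicate 2 or control replicate 1, 1 without pro-B control replicate 2, and 2, 1, 3 and 2 without Rag2-null deletion replicate 1 or 2 and control replicate 1 or 2. It was 1 under quantile normalization and 2 under median-ratio scaling. Myeloid markers summed to 35.5 to 42.2 RPKM in Rag2-null deleted cells and 10.4 to 29.95 in their controls, and their part in the result was not tested. The c-Kit-high effect differed from that in total pro-B cells for 1 gene, Gbp3 (1.95 ± 0.40, adjusted p = 0.0127), against 4.54% of all genes higher and 2.16% lower. That call was lost without pro-B control replicate 2 (1.88), c-Kit-high deletion replicate 1 (1.54) or c-Kit-high control replicate 2 (1.70).

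In pre-pro-B cells both knock-down constructs raised 4 genes in common, and the share of all genes raised by both was not computed. Of these, Oasl2 and Gbp3 were below 1 RPKM in every control library and were tested only through knocked-down libraries. Set against both controls, Ik4056 raised 6 and lowered 1 of 25 genes (13.7% and 5.21% of all genes) and Ik2709 raised 6 and lowered 0 (7.81% and 3.86%). Ifitm3 (2.60 and 2.11), Oasl2 (1.47 and 1.03), Gbp3 (0.75 and 1.21) and Ifih1 (0.66 and 0.68) rose with Ik4056 and with Ik2709. Oas1a (1.10) and Bst2 (0.62) rose and Psmb8 (-0.60, at the threshold) fell with Ik4056, and Oas3 (0.66) and Usp18 (0.48) rose with Ik2709; those differences between the constructs were not tested. Between the controls Ren713 and empty vector, 0 of 25 genes and 0% of all genes passed limma's test, and at an unadjusted p under 0.05 there were 0 of the 25 and 58 of all 10744. That is far below the share of 0.05 that chance alone would give. The fit ignores the paired runs of libraries, so it cannot show that the controls are equal.

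The pre-pro-B libraries fall into 4 sets of consecutive library numbers, each with 1 library of every construct, and libraries of a set deviated together. With the set as a block, 13 of the 25 genes rose and 3 fell, where 28.8% of all genes rose and 23.1% fell. The block added Irf9 (0.31), Isg15 (0.55), Bst2 (0.42), Parp9 (0.18) and Parp14 (0.19) among the genes that rose and Psmb8 (-0.34), Psmb9 (-0.29) and Tap1 (-0.26) among those that fell. The myeloid marker sum was 144 to 491 RPKM under knock-down and 24.9 to 98.8 in the controls, with S100a8 and S100a9 at 0 in all 16 libraries, and the plasmacytoid dendritic cell marker sum 310 to 628 and 373 to 704. Of the 9 plasmacytoid markers, 6 of the 8 tested rose and 2 fell. Of 4 B-lineage markers tested, 3 rose and 0 fell, with a median log2 difference of 1.27, and Igll1, a surrogate light chain gene, was at 2.35 to 30.5 RPKM under knock-down and 0.371 to 0.896 in the controls. The part of these cells in the result was not tested.

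A comparison of the knock-down with each deletion, added after the values had been seen, placed Gbp3 apart in all 3: the knock-down effect exceeded the deletion effect by log2 3.24 ± 0.29 for total pro-B cells, 1.29 ± 0.29 for the c-Kit-high fraction and 1.90 ± 0.29 for Rag2-null cells. Past the threshold, 4 genes were higher and 1 lower against total pro-B cells (10.8% and 8.37% of all genes), 4 and 1 against the c-Kit-high fraction (6.55% and 8.38%), and 2 and 6 against Rag2-null cells (4.94% and 7.95%). Irf1 exceeded the total pro-B (0.73) and c-Kit-high (0.92) deletion effects. Ifi44 (-1.65), Oas3 (-1.61), Oasl1 (-1.42), Irf7 (-1.26), Rsad2 (-1.03) and Ifit1 (-0.71) responded less under knock-down than in Rag2-null deleted cells. Gbp2 differed as well (1.70, 1.23 and 1.18), and Ifi44, Ifit1, Rsad2, Oasl1 and Gbp2 were below 1 RPKM in all 16 pre-pro-B libraries, so these differences rest on the pro-B side. The fit spans populations of different genotype. Stage, method of Ikaros loss, the vector and any culture that went with it cannot be told apart in it.

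Among the control groups and the wild-type pre-B cells, the interferon-stimulated genes differed strongly between populations. In c-Kit-high control cells 31 of 36 genes were higher and 0 lower than in total pro-B control cells, against 27.8% and 23% of all genes, with a median log2 difference of 1.51 against 0.08 for all genes. The 5 that did not pass were Bst2, Ifitm3, Gbp3, Psmb8 and Ifi35. Irf7 was at 29.9 and 20.7 RPKM in the c-Kit-high controls, against 1.69 and 0.903 in the pro-B controls (3.51 ± 0.32, adjusted p = 7.8e-06). Zbp1 was at 17.8 and 8.98 against 0.199 and 0.316 RPKM (3.45 ± 0.28), Oas3 at 15.5 and 7.67 against 0.274 and 0.434 (3.15 ± 0.27), Oasl1 at 12.9 and 13.6 against 0.365 and 0.917 (3.14 ± 0.20) and Ifi44 at 11.3 and 5.93 against 0.356 and 0.469 RPKM (2.71 ± 0.25). The library groups did not overlap for any of these. Dhx58 (2.09), Ddx58 (2.02), Isg15 (1.99), Oasl2 (1.73), Oas1a (1.56), Irf1 (1.55), Ifit1 (1.18) and Ifih1 (0.77) were higher too, the call of Ifih1 being lost without pro-B control replicate 2 (0.59) or c-Kit-high control replicate 1 (0.49). The myeloid markers moved with them: 7 of 8 tested were higher, S100a8 was at 134 and 18.6 RPKM against 0 and 0, and the sum was 587 and 137 against 13.6 to 14.5 RPKM. Of 7 plasmacytoid dendritic cell markers tested, 3 were higher and 1 lower; their sum was 157 to 179 against 172 to 176 RPKM, and Siglech, which defines those cells, was at 0.0403 and 0.180 against 0 and 0. The NK and T cell sum was 7.19 to 11 against 0.0328 to 0.137 RPKM. Of the c-Kit-high controls, replicate 1 had the higher myeloid and histone content, but replicate 2 still had the myeloid sum of 137 RPKM. Leaving out replicate 1 therefore does not remove these markers, and the part of other cells in the result was not tested.

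In wild-type pre-B cells 24 genes were higher and 4 lower than in the pro-B controls, against 31.9% and 36.9% of all genes, with a median of 0.89 against -0.07. Ddx58 reached its highest level there, 24.6 and 24.2 RPKM against 1.88 and 2.09 (log2 difference 3.09 ± 0.14, adjusted p = 3.88e-09), and Zbp1 (3.37), Oasl1 (3.04), Irf7 (2.67), Irf9 (2.62), Oas2 (2.60), Stat2 (2.29), Oas3 (2.17) and Oasl2 (2.04) were also higher. Gbp2 (-1.11), Ifit2 (-0.93), Gbp3 (-0.72) and Psmb8 (-0.62) were lower, and Ifih1 (-0.19), Oas1a (0.53), Ifitm3 (-0.14) and Ifi44 (-0.16) did not pass. The calls of Gbp3 (-0.87 to -0.58) and Ifit1 (0.41 to 0.62) were lost with any 1 of the 4 libraries left out. In the pre-B libraries Ifitm3 was at 70.9 and 107 RPKM, Irf1 at 55.9 and 60.4, Isg15 at 12.3 and 17.1, Dhx58 at 11 and 12.3 and Gbp3 at 8.4 and 6.67 RPKM. Oas3 was at 5.17 and 4.98, Oas1a at 4.49 and 4.28, Oasl2 at 3.14 and 5.14, Ifih1 at 1.17 and 1.4, Ifit1 at 0.832 and 1.13 and Ifi44 at 0.274 and 0.255 RPKM there. The pre-B libraries held a myeloid marker sum of 6229 to 6428 RPKM, with all 8 myeloid markers tested higher than in the pro-B controls. The erythroid sum was 95.7 to 129.6 against 2.00 to 2.42 RPKM, the NK and T cell sum 8.29 to 9.21 against 0.0328 to 0.137, and the plasmacytoid sum 320.2 to 372 against 172 to 176, with 5 of 7 tested higher and 0 lower. Ikzf1 was at 309 to 344 RPKM in the pre-B libraries and 56.4 to 59.2 in the pro-B controls, which carry a floxed Ikzf1 allele and Cre. Wild-type genotype, the number of intact Ikzf1 alleles and the absence of Cre cannot be told apart from stage. The part of these markers in the result was not tested.

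In Rag2-null controls, 8 genes were higher and 1 lower than in the pro-B controls, against 10.9% and 20.7% of all genes: Psmb9 (1.16), Oas1a (1.15), Oasl1 (1.15), Zbp1 (0.95), Psmb8 (0.92), Tap1 (0.92), Dhx58 (0.51) and Ifi35 (0.47) were higher and Eif2ak2 (-0.94) lower. With each of the 4 libraries left out in turn, the call was lost for Dhx58 in 4 fits, for Zbp1 in 3 and for Ifi35 in 2. In the pre-pro-B controls, 5 were higher and 15 lower, against 25.3% and 30.1%. Bst2 (1.95), Irf7 (1.17), Psmb8 (0.91), Psmb9 (0.90) and Tap1 (0.85) were higher, and the lowest relative to pro-B cells were Gbp3 (-3.02 ± 0.20), Gbp2 (-2.88 ± 0.20), Xaf1 (-2.39 ± 0.25), Oas1a (-1.86 ± 0.26) and Ifit2 (-1.71 ± 0.20). The 4 comparisons of populations share the 2 pro-B control libraries, and genotype cannot be told apart from stage for the pre-pro-B and pre-B cells. The pre-pro-B controls also carry a vector, and their library numbers form separate runs. Their implied depths are 18.1 to 37.6, against 10.4 and 11.7 in the pro-B controls, in units of 1e6 reads. Vector, any culture that went with it, run and depth cannot be told apart from stage there. For the Rag2-null controls, genotype cannot be told apart from the run of library numbers and the depth. Median-ratio scaling moved the median of all genes by 0.10 in the Rag2-null comparison, and the share of all calls that were higher was 53.9% under it and 45.0% under quantile normalization, against 34.4% without either.

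**Figure D4:**
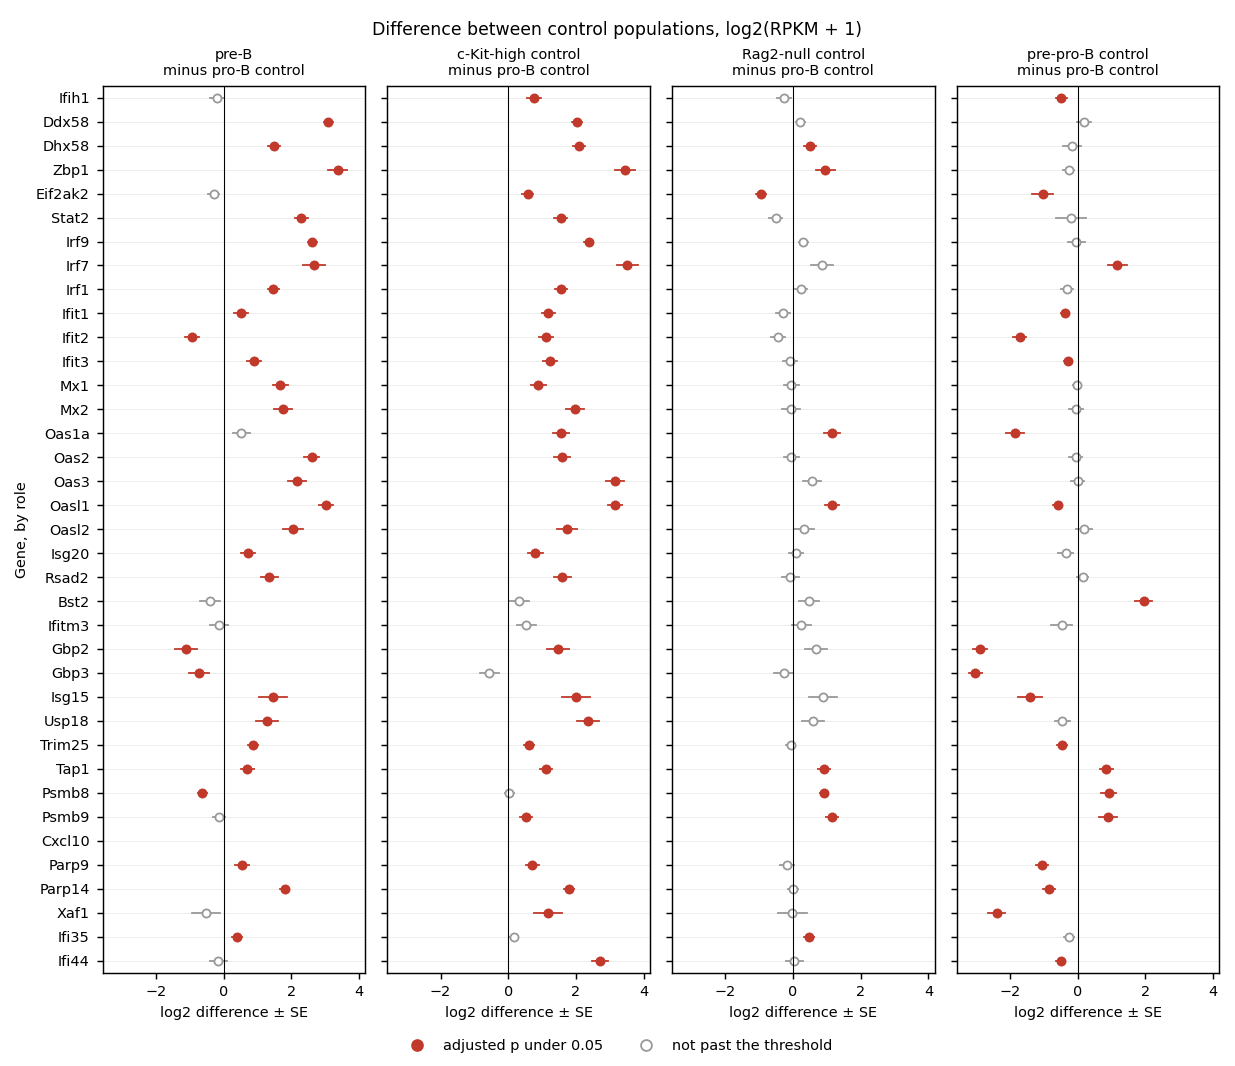
Log2 difference of RPKM + 1 (x axis, point, with its standard error as a line) for each gene tested (y axis, by role) in wild-type pre-B cells and in c-Kit-high, Rag2-null and pre-pro-B controls, each minus the total pro-B controls. Filled points passed an adjusted p under 0.05. Nearly all points lie right of 0 for c-Kit-high cells (31 of 36 filled) and 24 filled points do so for pre-B cells, whereas 15 filled points lie left of 0 for pre-pro-B cells.

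The genes of interferon signalling that are not themselves in the set were read from lists of the same kind. Of 9 receptor and kinase genes, 8 were higher and 0 lower in c-Kit-high than in pro-B controls and 9 higher in pre-B cells, among them the interferon lambda receptor Il28ra (2.78 and 0.96), Ifnar2 (1.10 and 0.49) and its partner Ifnar1 (0.88 and 0.83). Upon deletion 3 rose and 1 fell in total pro-B cells and 3 rose and 1 fell in Rag2-null cells, with Il28ra higher (1.30 and 2.23) and the interferon gamma receptor Ifngr1 lower (-1.19 and -0.67) in both. The c-Kit-high fraction had 2 lower (Ifnar2 -0.63, Jak1 -0.37) and the knock-down 0 called of 8. Of all genes, 27.8% were higher and 23% lower in the c-Kit-high controls, and 31.9% and 36.9% in pre-B cells. Upon deletion 13.5% of all genes rose and 9.89% fell in total pro-B cells, 15.5% and 6.84% in Rag2-null cells, and 11.6% and 5.6% in the c-Kit-high fraction. Among the IRF genes listed apart from the set, Irf4 was higher in c-Kit-high (1.53) and pre-B cells (3.29) than in pro-B controls. Irf4 rose and Irf5 fell upon deletion in total pro-B (1.78 and -1.24) and c-Kit-high cells (0.60 and -0.82). Irf8, a factor of dendritic cell and B cell development, rose under knock-down (1.67), rose in c-Kit-high deleted cells (0.67) and fell in total pro-B deleted cells (-0.60).

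Of 7 tested genes of upstream sensing, Ticam1, the adaptor of Toll-like receptor 3, rose in total pro-B (0.74), Rag2-null (0.51) and knocked-down cells (0.42). Of 8 feedback genes, the phosphatase Ptpn6 rose in the 3 deletions (1.98, 1.30 and 0.61), while Socs1 fell in Rag2-null cells (-1.27) and under knock-down (-0.70). On a list of 39 further interferon-induced genes, of which 36 were tested in pro-B cells and 30 in pre-pro-B cells, 8 rose and 5 fell in total pro-B cells, 5 and 4 in the c-Kit-high fraction, 6 and 3 in Rag2-null cells, and 6 and 2 under knock-down. The shares of all genes that rose and fell were, in the same order, 13.5% and 9.89%, 11.6% and 5.6%, 15.5% and 6.84%, and 13.4% and 6.04%. Samhd1, a nucleotide hydrolase that restricts retroviruses, rose in the 3 deletions (1.85, 0.90 and 1.4). The ISG15-conjugating enzyme Ube2l6 rose under knock-down (1.64), as did Trim30a (0.85). The same list was 29 higher and 1 lower in c-Kit-high against pro-B controls and 21 higher and 7 lower in pre-B cells, among them Rtp4 (3.24 and 1.92), Sp100 (2.89 and 4.61) and Ifi27l2a (2.76 and 4.88). Of all genes, 27.8% were higher and 23% lower in the c-Kit-high controls, and 31.9% and 36.9% in pre-B cells.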

How the data were processed

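RNA was poly(A)-selected and sequenced as strand-specific single-end libraries, per the labels' protocols. The authors deposited RPKM values per gene; the submitters' processing notes name TopHat 1.4.1, HTSeq 0.5.3, DESeq 1.8.3 and mm9, with no role stated for each. The RPKM values hold no read totals, so no count test was run, and depths implied by the value steps (2.34 to 37.6, in units of 1e6 reads) are approximate. The 30 RNA libraries of the 48 samples were used and the 18 ChIP samples were not analysed here.

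The values were tested with limma 3.58.1 (R 4.3.3, intensity trend, robust) on log2(RPKM + 1), for genes at 1 RPKM or more in at least 2 libraries of the fit. Fold changes are on that scale and are too small for genes with low values. The 14 pro-B and pre-B libraries, the 16 pre-pro-B libraries and all 30 made 3 fits. Within a fit all groups share 1 estimate of the spread of a gene. The SE of a gene is therefore the same in the 3 deletions. It can be set by groups other than those compared, such as c-Kit-high libraries that lie far apart. P-values are two-sided, Benjamini-Hochberg adjusted over all genes of the fit, with a threshold of 0.05. The procedure was tested on simulated data. Tables and figures used Python 3.11.15, pandas 2.3.3, numpy 2.4.6 and matplotlib 3.10.9.

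The genes and lists were chosen with earlier results of these data known. Values per library (lowest, median and highest for knocked-down and control pre-pro-B libraries) are given for the 12 genes called in at least 2 Ikaros comparisons or in a difference of deletion effects, and for listed genes up to 4 per comparison with the largest difference among those called. Exceptions are named in the text.

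Pre-pro-B libraries carry consecutive numbers in 4 runs with 1 library per construct. Same-run libraries deviated together: over 24 pairs the lowest correlation of deviations from group means was 0.52 and the median 0.77, against a median of -0.22 between runs, and 16 of 16 libraries correlated best with their own run. The runs were taken as pairs only in the fit with the replicate block and in the counts within sets of libraries numbered together. All other knock-down values, also those of single constructs, come from fits that ignore the runs. Alternatives were another pseudocount (0.1), no filter, quantile normalization, median-ratio scaling, other sets of libraries, each replicate left out and the replicate block. No 2 libraries were identical, and correlations within groups were 0.964 to 0.992.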

Additional observations from a re-analysis of the deposited data

Results flagged for a closer look

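Of 48 combinations of a gene with a pre-pro-B group tested for an outlying library, 5 had one, and chance flags about 1 in 20. All 5 are libraries of the first run: with Ik4056, replicate 1 had Isg15 at 4.66, Oasl2 at 4.98 and Oas3 at 1.15 RPKM, and with Ik2709, replicate 1 had Oas1a at 1.46 and Ifi44 at 0.0201 RPKM. In each case the library was the highest of its 4.

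Deletion effects that differed between populations were those of Isg15 (2.09), Ifi44 (1.70), Gbp3 (1.34), Ifit1 (1.07) and Ddx58 (0.69), on the log2 scale, for Rag2-null minus total pro-B cells, and of Gbp3 (1.95) for c-Kit-high minus total pro-B cells. In tests added after seeing the data, the knock-down effect minus the total pro-B deletion effect was 3.24 for Gbp3, 1.70 for Gbp2, 1.66 for Isg15, 0.73 for Irf1 and -0.53 for Oasl1. Minus the c-Kit-high effect it was 1.29 for Gbp3, 1.23 for Gbp2, 0.97 for Usp18, 0.92 for Irf1 and -0.84 for Oas2. Minus the Rag2-null effect it was 1.90 for Gbp3 and 1.18 for Gbp2. It was -1.65 for Ifi44, -1.61 for Oas3, -1.42 for Oasl1, -1.26 for Irf7, -1.03 for Rsad2 and -0.71 for Ifit1.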

How the results depend on the processing

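Of 753 alternatives to 62 single-gene results, 617 kept direction and call, 136 kept the direction and lost the call, and 0 reversed. The number of called genes moved by over 1.5 times under these settings: in the c-Kit-high fraction it was 8 under quantile normalization and 7 when the 30 libraries were fitted together, against 4; in Rag2-null cells 10 and 11 under the same settings, against 19; for Rag2-null minus total pro-B effects 3 with no filter, 1 under quantile normalization and 2 under median-ratio scaling, against 5; for c-Kit-high minus total pro-B effects 2 with a pseudocount of 0.1, against 1. With the replicate block, pairing libraries of a run, 16 genes were called under knock-down, against 8, and 0 for Ren713 against empty vector, against 0. With each replicate left out, counts ranged from 2 to 5 in total pro-B cells, 4 to 10 in the c-Kit-high fraction, 9 to 14 in Rag2-null cells, 1 to 5 and 0 to 3 for the Rag2-null and c-Kit-high minus total pro-B effects, 7 to 8 under knock-down, 0 to 0 for Ren713 against empty vector, and 22 to 25, 26 to 29, 6 to 8 and 14 to 20 for pre-B, c-Kit-high, Rag2-null and pre-pro-B against pro-B controls. The cause of these shifts was not tested. Groups of 2 are then left with 1 library, which is assumed to vary like the other groups. For the knock-down, the compared groups alone are the 16-library fit itself. At the lowest implied depth, in a c-Kit-high control library, genes near 1 RPKM rest on few reads.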
